A study of Rattus norvegicus with 6 samples.

Results

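Drd1 spiny neurons of the Pde11a-Chst15 side were 82 nuclei out of 64260 barcodes from the rat nucleus accumbens, which forms the ventral striatum. They were selected from 61609 nuclei in which 500 or more genes were seen and mitochondrial genes made up no more than 5% of the UMIs (unique molecular identifiers, each counting 1 captured RNA molecule). A gate kept 244 nuclei with at least 2 UMIs of Gad1 plus Gad2, at most 1 UMI over the glial genes Mog, Aqp4, Pdgfra and Csf1r, and at least 2 Drd1 UMIs. The same gate required no UMI of Drd2, Adora2a or Otof and at most 1 UMI each of Chst9 and Bnc2. Each gated nucleus was then scored as the log2 ratio of 2 sums, each with 1 added. The numerator summed Ust, Chst15, Pde11a, Sulf1, Pde5a and Mlip, here called the raising genes, and the denominator summed Rgs6, Pde1c, Crym, Calb1, Cntnap3 and Prkch. Ranked over all libraries and divided into 3 parts, the scores gave 82 members at the top and 82 nuclei of the Rgs6-Crym-Calb1 side at the bottom, with a middle group of 80 nuclei. For comparison, 3400 Drd2 spiny nuclei had no Drd1 UMI and at least 2 Drd2 UMIs; the GABA, glial, Chst9, Otof and Bnc2 criteria were the same, and none was set on Adora2a.

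The animals were adult male and female Sprague-Dawley rats aged 90 to 120 days. All of them had self-administered heroin: 7 days at 1 response per infusion, then 4 days at 3 responses. A progressive ratio test followed on day 12, and days 13 and 14 returned to 3 responses. They then received saline or naloxone, an antagonist of opioid receptors, and tissue was taken 1 hour later. No rat without heroin was analysed here, so both groups share the heroin history. The 12 rats (6 male, 6 female) were combined into 6 libraries, 3 from saline (replicates 1 to 3) and 3 from naloxone (replicates 4 to 6), and p-values below measure the spread between such pools.

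The striatum sends its output through spiny GABA neurons. Those of the direct pathway carry the D1 dopamine receptor, coupled to the cyclic AMP-raising G protein Golf, and usually make dynorphin, while those of the indirect pathway carry the D2 receptor and make enkephalin. Cyclic AMP and cyclic GMP are broken down by phosphodiesterases, to which Pde11a, Pde5a and Pde1c belong. Chst15 and Ust add sulfate groups to chondroitin and dermatan sulfate chains, and Sulf1 removes sulfate from heparan sulfate at the cell surface. Neighbouring spiny neurons are known to differ in graded ways in such genes.

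The gate was narrow. Of the nuclei that passed the GABA and glial criteria, 3757 had at least 1 Drd1 UMI and 681 had at least 2, and the demand for no Otof UMI took the remaining 565 nuclei to 244. Gated nuclei were 0.396% of kept nuclei, and the members came to 14, 12 and 15 in the saline libraries and 13, 14 and 14 in the naloxone libraries. The labels state 44592 nuclei for the study, against 64260 barcodes in the files and 61609 after the filter used here. Any 2 libraries shared 19 to 45 barcodes. Members had a median of 10387 UMIs (range 1015 to 29902), near the 10330.5 of the middle group and the 11102.5 of the Rgs6-Crym-Calb1 side. The members of a library summed to between 90522 and 203685 UMIs, so 1 UMI was worth 4.91 to 11.0 CPM (a gene's UMIs scaled to a total of 1000000 per class and library). Counts of same-treatment libraries differed by more than sampling noise in every pair (chi-square per degree of freedom 1.96 to 3.45). Both pairs with naloxone replicate 5 were the most discordant, at 3.45 and 3.17.

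**Figure D1:**
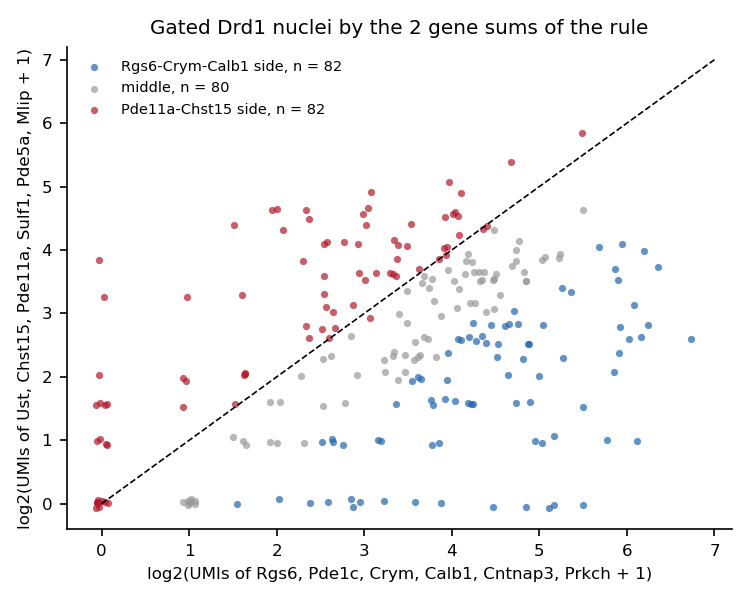
Each point is 1 of the 244 gated nuclei, placed by log2 of the summed UMIs plus 1 of the 6 genes that lower the score (x axis) and of the 6 raising genes (y axis), with a small random offset. The dashed line marks equal sums: the 82 members (red) lie on or above it, and 9 of them lie at the origin with no UMI of any score gene.

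The threshold fell at a score of 0, where both sums are equal. At that value 15 nuclei were just inside, with sums of 0 to 20 UMIs on each side. Just outside were 2 nuclei at -0.12 (11 raising UMIs against 12) and 1 nucleus at -0.14 (9 against 10). The members were uneven in how far the raising genes were seen: 9 carried no UMI of the 12 score genes, 12 carried UMIs of 1 raising gene, 6 of 2, 12 of 3, 25 of 4, 16 of 5 and 2 of all 6. Members with at least 5 raising UMIs numbered 57, with a median of 11227 UMIs per nucleus. The other 25 had a median of 5478 UMIs per nucleus. Shallow nuclei could therefore enter by holding few UMIs of either sum.

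The score genes describe how the members were picked, and no test was made of them. Ust reached 346.8 ± 110.8 CPM (SD, n = 6 libraries) in members and 20.8 ± 18.0 CPM on the Rgs6-Crym-Calb1 side, the widest ratio of the raising genes at 16.7. By library Ust stood at 355, 342 and 363 CPM in saline and 354, 507 and 159 CPM in naloxone, so naloxone replicate 6 was low and replicate 5 high. At least 1 Ust UMI was seen in 44 of 82 members against 10 of 82 nuclei of the other side, at similar median depth.

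Pde11a, which hydrolyses both cyclic nucleotides, was at 126 ± 69.1 CPM in members and 13.6 ± 15.5 CPM on the other side. Its library values were 48.2, 70.4 and 162 CPM in saline and 77.3, 201 and 199 CPM in naloxone, and 28 of 82 members had a UMI. The namesake gene was thus seen in a minority of the nuclei named for it. Sulf1 was at 204 ± 36.6 against 39.0 ± 22.4 CPM, with UMIs in 58 members and in 22 nuclei of the other side. Chst15 differed less, 159 ± 50.1 against 99.98 ± 25.2 CPM, and 53 members and 45 nuclei of the other side had a UMI. Mlip, which encodes a lamin-interacting protein, was at 249 against 111 CPM, and the cyclic GMP phosphodiesterase Pde5a at 17.2 against 2.83 CPM on 17 UMIs. Of these 6 genes, all but Pde5a were higher in members in 6 of 6 libraries; Pde5a was higher in 5.

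Among the genes that lower the score, Pde1c, a calcium-activated phosphodiesterase, was at 204 CPM in members against 1279.6 CPM on the other side. Rgs6, which shortens signalling of inhibitory G proteins, was at 107 against 561 CPM. Calb1, a calcium buffer, was at 11.7 against 58.5 CPM, Crym, a thyroid hormone binding protein, at 29.5 against 54.1 CPM, and the protein kinase C gene Prkch at 86.3 against 210.5 CPM. Cntnap3, an adhesion gene, had the least separated values, 150.1 against 232 CPM, and was lower in members in 5 of 6 libraries. Calb1, on 11 UMIs in members, was also lower in 5 of 6. Rgs6, Pde1c, Crym and Prkch were lower in 6 of 6.

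**Figure D2:**
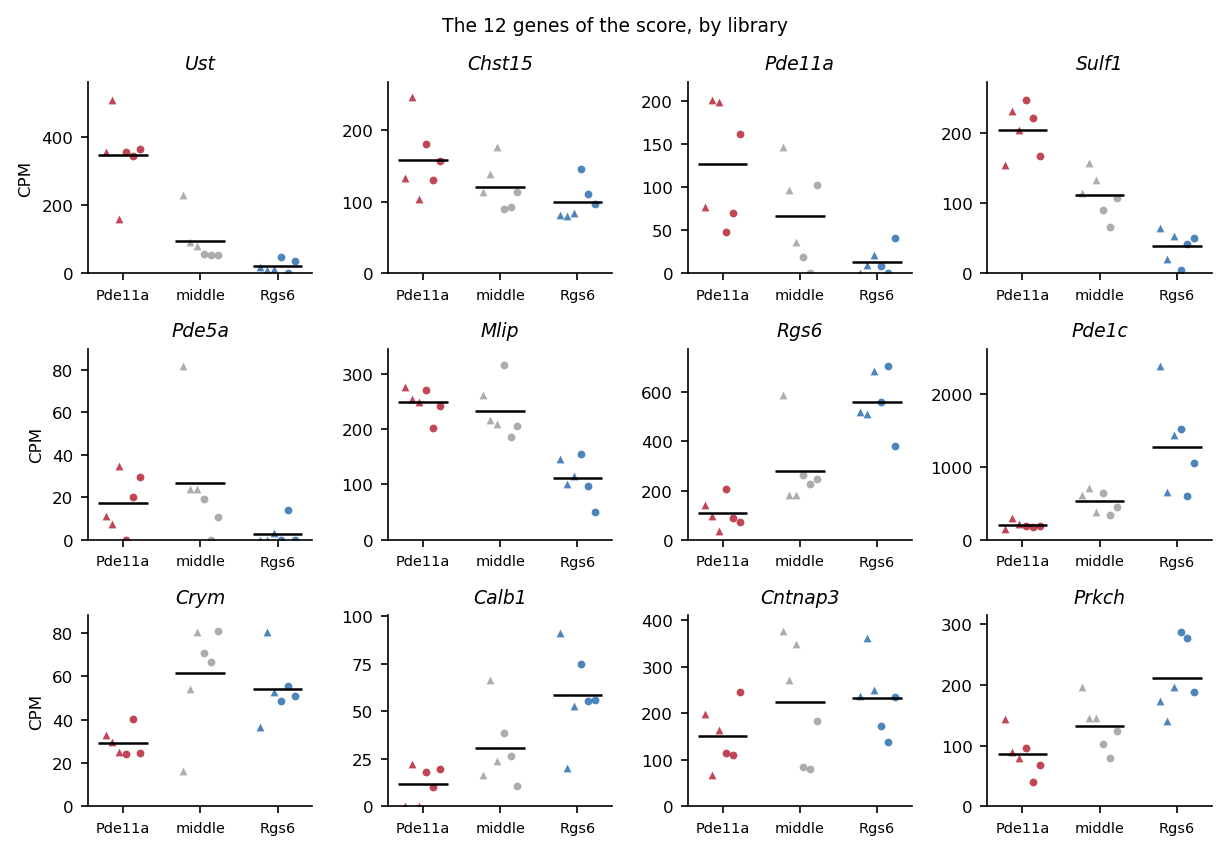
CPM of the 12 score genes in the Pde11a-Chst15 side, the middle group and the Rgs6-Crym-Calb1 side; each point is 1 library (circles saline, triangles naloxone) and each bar the mean of 6 libraries. The means of Ust, Sulf1, Pde11a, Pde1c and Rgs6 step through the middle group, whereas the means of Pde5a and Crym are highest in it.

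Markers of D1 spiny neurons gave a mixed picture in the members: some were above Drd2 spiny nuclei, and others were few or absent. Against Drd2 spiny nuclei, 224 of 6433 genes (3.48%) were higher in 6 of 6 libraries and 374 (5.81%) were lower, again a description of classes that the gate defined. Besides Drd1 (224 ± 64.2 CPM, used by the gate), the direct-pathway regulator Isl1 was at 69.4 ± 37.2 CPM against 7.27 ± 1.94 CPM in Drd2 spiny nuclei, and the muscarinic receptor gene Chrm4 at 33.3 ± 9.67 against 3.73 ± 1.22 CPM. Both were higher than in Drd2 spiny nuclei in 6 of 6 libraries. Pdyn, the dynorphin precursor, was low at 17.6 ± 14.3 CPM on 15 UMIs in 13 members, against 3.72 CPM in Drd2 nuclei. Of the other direct-pathway markers, Sfxn1 had 22 UMIs in 19 members and was above Drd2 nuclei in 5 of 6 libraries. Ebf1 had 10 UMIs in 4 members and was above Drd2 nuclei in 4 of 6 libraries, and Eya1 had none. Against the Rgs6-Crym-Calb1 side, Isl1 and Chrm4 were higher in 5 and 4 of 6 libraries. Pdyn, Sfxn1 and Ebf1 were lower than on that side in 5, 4 and 6 of 6. Penk, the enkephalin precursor, was at 28.9 ± 11.9 CPM, below the 107 ± 26.1 CPM of Drd2 nuclei in 6 of 6 libraries, and Sp9 was at 0. The general spiny genes were all detected, among them Rarb (2617 CPM), Pde10a (2178 CPM), Foxp1 (1083 CPM), Bcl11b (307 CPM) and Ppp1r1b (58.5 CPM). Tac1, the substance P precursor, and Chat were not analysed here.

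Markers of other cells that the gate did not use were mostly absent. Gfap, Aldh1l1, Cspg4, Cx3cr1, Flt1, Pdgfrb, Rgs5, Slc17a7, Slc17a6, Pvalb and Vip had no UMI in any member; 3 UMIs, the limit that a count of 0 allows, would be 3.35 CPM over the pooled members. The myelin gene Mbp was at 93.7 CPM, beside 79.0 CPM in Drd2 nuclei. The interneuron peptides Sst and Npy had 9 UMIs each, in 7 and 6 members. A single nucleus held 7 of these UMIs; it was the only one of the 9 members without a score UMI to have any, and no member with at least 5 raising UMIs had more than 1. The 13 spiny markers summed to 6435 CPM in those 9 nuclei pooled and to 13194 CPM in the 57 with at least 5 raising UMIs, while Foxp2, 1 of the 13, was at 1977 and 1643 CPM. Genes of other spiny classes were present too. Grm8 had 354 UMIs in 41 members and was above the Rgs6-Crym-Calb1 side and Drd2 nuclei in 6 of 6 libraries. The D3 receptor gene Drd3 was at 86.8 ± 61.5 CPM in 28 members, against 21.9 ± 3.46 CPM in Drd2 nuclei. UMIs of Drd3 were also found in 29 nuclei of the middle group and 26 of the Rgs6-Crym-Calb1 side. Casz1 was at 16.2 ± 17.4 CPM on 15 UMIs in 10 members, above the Rgs6-Crym-Calb1 side in 4 of 6 libraries and below it in 0.

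Outside the rule, the widest differences between the sides included transcription factor, axon guidance and receptor genes. Among 6569 genes with at least 20 CPM on the higher side, 207 (3.15%) were higher in members than on the Rgs6-Crym-Calb1 side in 6 of 6 libraries and 210 (3.20%) were lower. A difference of 2-fold or more in every library, on the log2 scale with 1 CPM added, was found for 7 higher genes (0.107%) and 8 lower genes (0.122%). The rule made this contrast from the same nuclei, so these values are a description and have no test. The 7 higher genes were Foxp2, Htr4, Col11a1, Sema3a, Edar, Sema5b and Rnf220. The 8 lower genes were Prkg1, Ebf1, Sv2b, Sh3rf2, Chd7, Trhr, Cc2d2b and Ehd4.

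Foxp2, a forkhead transcription factor of direct-pathway and striosomal neurons, was at 1451, 2022 and 1704 CPM in the saline libraries and 1491, 2030 and 2074 CPM in the naloxone libraries of members. On the Rgs6-Crym-Calb1 side it lay between 458 and 685 CPM, and no library of either side overlapped the other. The mean difference was 1.65 on the log2 scale, the middle group lay between at 1071 CPM, and Drd2 spiny nuclei were at 198 ± 27.3 CPM. UMIs of Foxp2 were found in 74 of 82 members.

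Htr4, which encodes a serotonin receptor coupled to cyclic AMP production, was at 494, 684 and 555 CPM in saline and 630, 828 and 602 CPM in naloxone. The other side ranged from 27.4 to 190.1 CPM, a mean log2 difference of 2.27, and Drd2 spiny nuclei had 272 ± 41.2 CPM. Members were thus above both comparison classes for this receptor. Sema3a, a secreted repellent of growing axons, averaged 144 ± 20.3 against 31.8 ± 16.6 CPM. Col11a1, a fibrillar collagen chain, averaged 271 ± 67.0 against 68.4 ± 18.9 CPM, and Drd2 nuclei were at 40.7 and 104 CPM for these genes. The transmembrane semaphorin Sema5b (20.2 against 1.89 CPM) and the ectodysplasin receptor Edar (28.4 against 4.20 CPM) were low in absolute terms. On the other side these 2 genes had 3 and 4 UMIs. Rnf220, a ubiquitin ligase, rested on few nuclei: 1 member of saline replicate 2 held 18 of its 44 UMIs.

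Prkg1, the cyclic GMP-dependent protein kinase I, was the lower gene with the most UMIs. It stood at 283, 302 and 167 CPM in the saline libraries of members and at 254, 14.9 and 393 CPM in the naloxone libraries, with naloxone replicate 5 the lowest. On the other side it ranged from 1039 to 2185 CPM, and in Drd2 spiny nuclei it was at 712 ± 61.6 CPM, above the members in 6 of 6 libraries. Ebf1, an early B-cell factor that acts in the development of direct-pathway neurons, was at 12.0, 10.1 and 0 CPM in saline and 33.1, 0 and 19.9 CPM in naloxone. The Rgs6-Crym-Calb1 side had 57.4 to 291 CPM of Ebf1, a mean log2 difference of -4.40. The size of this difference depends on the 1 CPM added, since members had 0 UMIs in saline replicate 3 and naloxone replicate 5. Sv2b, a synaptic vesicle protein gene used as a matrix marker, was at 19.9 ± 6.39 against 100.1 ± 17.9 CPM. The chromatin remodeller Chd7 (11.2 against 70.8 CPM), the thyrotropin-releasing hormone receptor gene Trhr (3.08 against 22.7 CPM) and Sh3rf2 (23.5 against 86.1 CPM) followed. Cc2d2b and Ehd4 were at 4.76 and 2.68 CPM in members, levels that a single UMI per library can reach. Trhr likewise had 2 UMIs over all members.

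**Figure D3:**
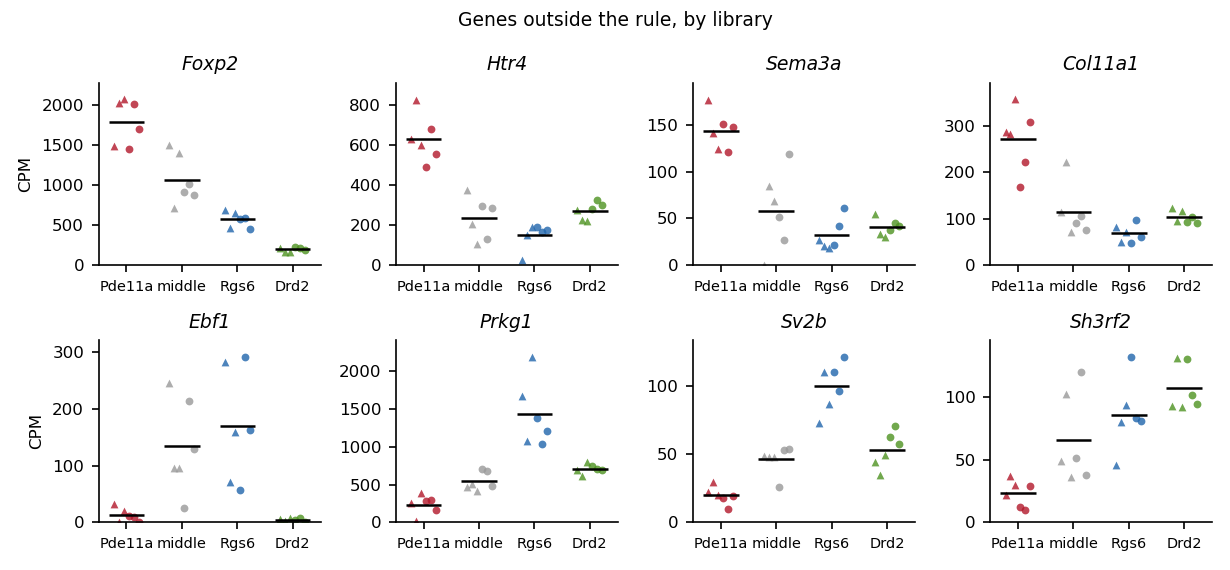
CPM of 4 genes higher and 4 lower in members, by library (circles saline, triangles naloxone; bars are means of 6 libraries), in the Pde11a-Chst15 side, the middle group, the Rgs6-Crym-Calb1 side and Drd2 spiny nuclei. For all 8 genes the 6 member libraries lie apart from the 6 libraries of the Rgs6-Crym-Calb1 side, and Foxp2 falls in steps from 1795 CPM in members to 198 CPM in Drd2 nuclei.

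The 10 largest mean differences in each direction, among genes with 1 sign in 6 of 6 libraries, added further genes. On the higher side these were Stac, Thsd7b, Smokl4, Camlg, Lgr6, Sdk2 and Cacna1h. Thsd7b (310 ± 186 against 50.9 ± 50.4 CPM) was no higher than in Drd2 nuclei (386 CPM), and Sdk2, a synaptic adhesion gene, was at 79.8 ± 28.4 against 26.1 ± 27.0 CPM. The T-type calcium channel gene Cacna1h was at 37.6 ± 10.5 against 12.9 ± 12.2 CPM. On the lower side the additions were Plcz1, Tex16, Odad2, Ipcef1 and the muscarinic receptor gene Chrm5, which was at 17.0 ± 12.3 against 108 ± 52.8 CPM. Several of these genes rested on few UMIs, so the size of their difference depends on the 1 CPM added. Plcz1, Tex16 and Ipcef1 had 2, 1 and 7 UMIs in members, and Stac had 4 on the other side. Lgr6 had 24 UMIs in members and 17 on the other side, where 1 nucleus held 12.

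Nuclei with exactly 1 Drd1 UMI, which the rule left out, gave a second view of the same libraries. With the gate otherwise unchanged, the top part of the scores held 538 such nuclei (66 to 132 per library) and the bottom part 447. Of the 417 genes with 1 sign in 6 of 6 libraries, 329 kept that sign in the mean of these nuclei. So did 13 of the 15 genes with 2-fold differences; Ehd4 and Cc2d2b did not. The sizes were mostly smaller: Foxp2 stood at 0.87 on the log2 scale, Htr4 at 2.02, Col11a1 at 1.47, Prkg1 at -1.85 and Ebf1 at -3.56, each with its sign in 6 of 6 libraries. Rnf220 was higher in only 3 of 6 libraries. Cacna1h was nearly equal on the 2 sides in these nuclei, at 28.6 against 27.1 CPM, and higher in 4 of 6 libraries. These nuclei come from the same animals and were split by the same score, so they too have no test.

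**Figure D4:**
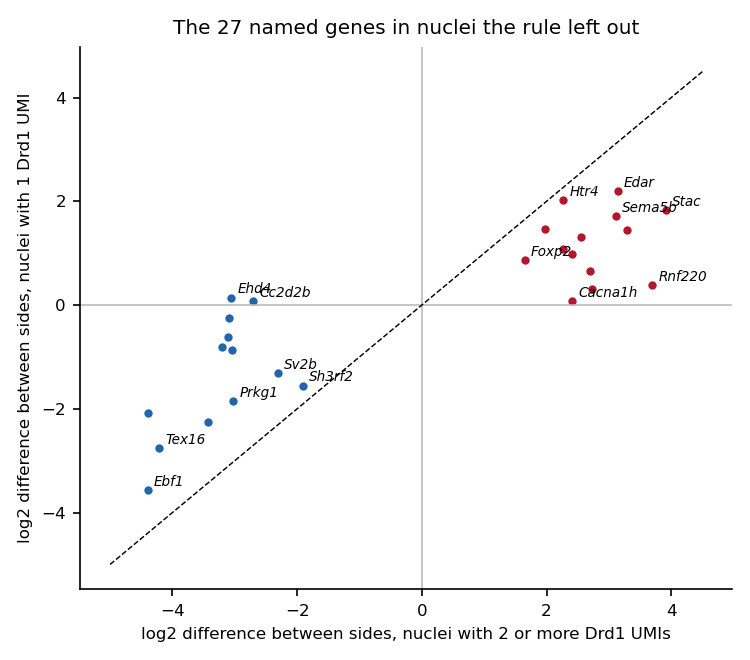
Mean log2 difference between the 2 sides for the 27 named genes outside the rule, in nuclei with 2 or more Drd1 UMIs (x axis) and in nuclei with exactly 1 (y axis); red genes were higher and blue genes lower in members. Most points lie between the dashed line of equal size and 0, and Ehd4 and Cc2d2b lie just above 0.

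Promoter sequences of these genes were searched for a forkhead motif (TGTTTAC) and an EBF motif (TCCC and GGGA with any 2 bases between them), on both strands, in the 250 bases before the start. The motifs were picked after Foxp2 and Ebf1 had been seen among the differing genes. RefSeq entries (assembly GRCr8, whereas the counts use mRatBN7.2) were found for 14 of 21 genes: 4 of the 6 raising genes, 4 of the 7 higher and 6 of the 8 lower genes. Foxp2, Htr4, Sema3a, Sulf1, Mlip, Chd7 and Trhr had no entry used here. None held the forkhead motif, which is in 3.21% of 33469 such windows, and 1 gene held the EBF motif, which is in 0.738%. These percentages count windows, whereas the matches are given by gene. Pde11a had more than 1 window, and the match was in only 1 of them. The Pde11a window with that match is shown with the motif in capitals, and the Prkg1 window, which held neither, is shown as the gene with the most UMIs among the lower ones. A match is a description and not a binding site.
Pde11a, chr3:81704398-81704647, minus strand, match starting at base -27: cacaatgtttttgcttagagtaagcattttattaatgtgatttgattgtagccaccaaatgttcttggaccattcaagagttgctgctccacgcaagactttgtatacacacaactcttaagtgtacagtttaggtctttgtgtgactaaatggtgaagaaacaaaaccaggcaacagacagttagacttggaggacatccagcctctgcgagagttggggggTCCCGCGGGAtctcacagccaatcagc
Prkg1, chr1:239052185-239052434, minus strand: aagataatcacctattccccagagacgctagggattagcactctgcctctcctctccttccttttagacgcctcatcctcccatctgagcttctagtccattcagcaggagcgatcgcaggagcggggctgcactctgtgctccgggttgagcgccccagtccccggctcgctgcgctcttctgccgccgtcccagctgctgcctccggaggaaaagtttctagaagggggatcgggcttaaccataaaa

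The other genes of the pathways named above were counted by sign in 6 of 6 libraries, beside 3.15% higher and 3.20% lower over all genes compared; with so few genes a list, the counts are a description. Of 12 further phosphodiesterases compared, none was higher and 2 were lower. Pde4b, a cyclic AMP phosphodiesterase, was at 1107 ± 267 CPM in members, 2009 ± 650 on the other side and 2442 ± 235 in Drd2 nuclei. Its relative Pde4d was at 696 ± 306, 1011 ± 233 and 1409 ± 46.9 CPM. Of 16 cyclases and kinases, Gucy1b1, a subunit of the nitric oxide receptor that makes cyclic GMP, was higher (121 ± 33.2 against 75.3 ± 30.9 CPM) and Prkg1 lower. Adcy5, the main striatal adenylyl cyclase, was at 651 ± 70.0 against 573 ± 78.2 CPM and above Drd2 nuclei (455 ± 35.2 CPM) in 6 of 6 libraries.

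Of 21 sulfation and glycosaminoglycan enzymes outside the score, none was higher and 2 were lower in 6 of 6 libraries. The median log2 difference of these 21 genes was 0.0036, beside 0.0082 over all genes compared. Those lower were Hs6st2, a heparan sulfate 6-O-sulfotransferase (304 ± 62.2 against 457 ± 84.0 CPM), and Extl3 (23.0 against 36.5 CPM). The Hs6st2 paralog Hs6st3 was at 548, 624 and 422 CPM in the saline libraries of members and 563, 634 and 169 CPM in naloxone. The other side was at 27.4 to 333 CPM, and naloxone replicate 6 was the 1 library where members were lower. Among 10 proteoglycan and matrix genes, 2 were higher in 6 of 6: the chondroitin sulfate proteoglycan and phosphatase Ptprz1 (645 ± 55.9 against 433 ± 38.0 CPM) and the matrix glycoprotein Tnr (134 ± 34.3 against 58.7 ± 18.6 CPM). Both were also above Drd2 nuclei in 6 of 6 libraries (376 and 75.3 CPM).

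Receptor subunits included genes of both directions, beside the same background of 3.15% higher and 3.20% lower. Of 21 glutamate receptor genes, 2 were higher and 2 lower, and of 11 GABA-A receptor subunits 1 was higher and 3 lower. Grm7 (4579 against 3649 CPM) and Grm8 (409 ± 208 against 219 ± 99.1 CPM), both presynaptic metabotropic receptors coupled to inhibitory G proteins, were higher in 6 of 6 libraries. Grik1, a kainate receptor subunit (139 ± 96.6 against 371 ± 183 CPM), and Grid1 (645 against 726 CPM) were lower. Among the GABA-A subunits, Gabrg3 was higher (3214 ± 469 against 2131 ± 418 CPM) and Gabra2 (329 against 500 CPM), Gabra5 (31.4 against 78.6 CPM) and Gabrb1 (1315 against 1745 CPM) were lower. Grin2a was at 663 ± 143 against 315 ± 153 CPM, higher in 5 of 6 libraries and above Drd2 nuclei (340 CPM) in all 6.

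Striosome and matrix markers, which mark compartments of the striatum, gave no single picture. Of 9 striosome genes compared, Sema5b was higher in 6 of 6 libraries and none was lower, with a median log2 difference of -0.47. Kremen1 was at 77.1 ± 35.5 against 32.9 ± 25.5 CPM, whereas Kcnip1 was at 25.8 ± 26.1 against 76.8 ± 38.1 CPM. Of 4 matrix genes, Sv2b was lower. The mu opioid receptor gene Oprm1 was at 66.2, 40.2 and 19.6 CPM in saline and 22.1, 0 and 64.7 CPM in naloxone, values that overlapped those of the other side (49.7 ± 27.0 CPM) and of Drd2 nuclei (45.4 ± 13.3 CPM). Oprk1, the kappa receptor gene, was at 31.3 ± 8.19 CPM and above Drd2 nuclei (7.74 ± 2.70 CPM) in 6 of 6 libraries. It was not particular to the members, with 28 UMIs there, 42 in the middle group and 28 on the Rgs6-Crym-Calb1 side. Members were above the latter in 4 of 6 libraries. Oprd1, the delta receptor gene, was at 9.88 ± 7.52 against 57.7 ± 9.41 CPM in Drd2 nuclei, lower in 6 of 6, and Oprl1 had 3 UMIs.

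The question for naloxone was which genes of these neurons changed 1 hour after the antagonist in heroin-trained rats. In the members, none of 2723 genes tested passed (0%; edgeR's quasi-likelihood test, Benjamini-Hochberg adjusted p under 0.05). At an unadjusted p under 0.05 there were 111 genes, and DESeq2 also called 0, with 41 at an unadjusted p under 0.05. Estimates were balanced, 1356 above and 1367 below 0, with a median log2 change of -0.0016. Libraries of the groups did not overlap for 130 genes upward (4.77%) and 128 downward (4.70%). On simulated counts of the same depth, the test recovered 35.5% of genes changed by 1 on the log2 scale and 93.0% of those changed by 2. That simulation changed 200 of the 2723 genes at once, with noise set by the trend over genes. Recovery of a few changed genes, or of genes noisier than the trend, was not tested.

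Tenm3 and Chordc1 had the lowest adjusted p. They were named after their values were seen, since no gene met the naming rule. Chordc1, a cochaperone of HSP90, was at 96.3, 131 and 152 CPM in saline and 55.2, 14.9 and 24.9 CPM in naloxone, on 72 UMIs. The groups did not overlap, with a log2 change of -2.14 (SE 0.45) and an adjusted p of 0.200 in edgeR. In Drd2 spiny nuclei the same gene fell by 0.61 on the log2 scale (edgeR adjusted p 0.0343), and on the Rgs6-Crym-Calb1 side the estimate was -1.42 (SE 0.42, adjusted p 0.841). With the gate widened to 1 or more Drd1 UMIs (620 nuclei), a choice made after the data were seen, Chordc1 stood at -1.14 (SE 0.18, edgeR adjusted p 0.0798) and again 0 of 8350 genes passed.

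Tenm3, a teneurin that guides synaptic partner matching, was at 1132, 1348 and 938 CPM in saline and 2452, 1828 and 2527 CPM in naloxone. Every naloxone library was above every saline library, with a log2 change of 0.98 (SE 0.21, edgeR adjusted p 0.200). A single nucleus of naloxone replicate 6 held 176 of the 1488 UMIs. Without naloxone replicate 5 the adjusted p was 0.0104, and with the gate widened to 1 or more Drd1 UMIs the log2 change was 0.17 (adjusted p 0.851).

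Xist, the noncoding RNA of the inactive X chromosome, marks nuclei of female rats, and 2 of the 3 naloxone libraries had more of it than any saline library by share of nuclei. At least 1 Xist UMI was found in 28.6, 25.0 and 33.3% of members in saline and in 53.8, 78.6 and 28.6% in naloxone (means 29.0 and 53.7%; exact two-sided permutation p 0.3, where 3 against 3 cannot go below 0.1). The share in naloxone replicate 6 lay within the saline range. Its summed level was 181, 191 and 137 CPM against 442, 470 and 229 CPM (log2 change 1.14, edgeR adjusted p 0.472). The part of this difference in the naloxone comparisons was not tested.

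**Figure D5:**
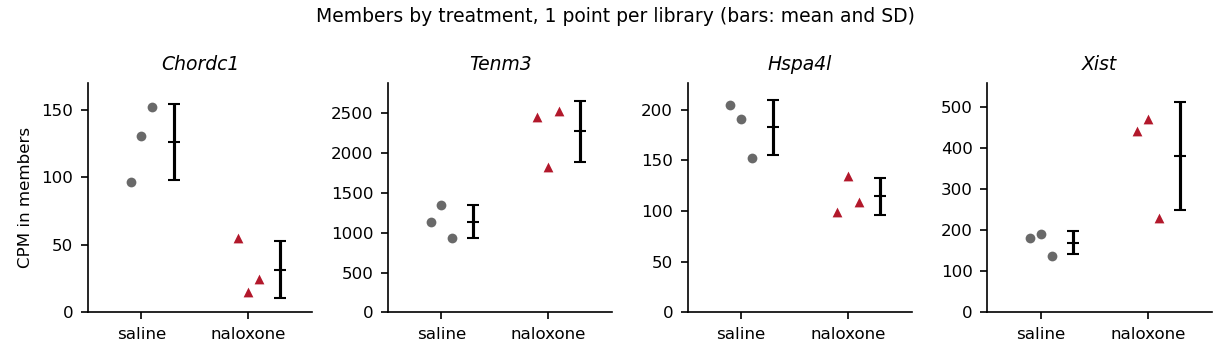
CPM of Chordc1, Tenm3, Hspa4l and Xist in members, 1 point per library (circles saline, triangles naloxone), with the mean and SD of 3 libraries beside them. The groups do not overlap for any of these 4 genes, and none passed the adjusted threshold.

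The fixed response lists held few testable genes at this depth. Of 20 heat shock genes, 8 were tested and 0 called; 3 estimates were above 0 and 5 below, with a median of -0.17. Hspa4l, an HSP110-family chaperone, was at 205, 191 and 152 CPM in saline and 99.4, 134 and 109 CPM in naloxone (log2 change -0.66, edgeR adjusted p 0.961). Hsph1, another HSP110 gene, overlapped between groups at 96.3, 161 and 118 against 110.5, 67.2 and 119 CPM. Of 13 glucocorticoid response genes in the files, 3 were tested and 0 called. Fkbp5, which restrains the glucocorticoid receptor, did not reach the count filter; it was at 96.3, 40.2 and 63.8 CPM in saline and 22.1, 37.3 and 19.9 CPM in naloxone, on 44 UMIs. Of 20 immediate early genes, only Homer1 was tested (269.5 against 303 CPM, log2 change 0.14, edgeR adjusted p 0.987). Fos had 1 UMI, Egr1 had 5, and Arc, Npas4 and Egr3 had none among the 82 nuclei, so a change in them was not detectable here.

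The share of gated Drd1 nuclei that fell on the Pde11a-Chst15 side was 28.0, 40.0 and 33.3% in saline and 44.8, 33.3 and 29.2% in naloxone. The widest exact 95% binomial interval, in naloxone replicate 4, ran from 26.4 to 64.3%; such intervals cover counting error only. The means were 33.8 ± 6.01% and 35.8 ± 8.11% (SD, 3 libraries each), a difference of 2.00 percentage points (exact two-sided permutation p 0.7). The groups overlapped, and the sign of this difference was not stable: it was -2.53 without naloxone replicate 4 and -0.89 without saline replicate 1. Fewer cells of a type and less RNA per nucleus cannot be told apart in such shares, since the gate rests on UMI counts.

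Whether naloxone acted differently on the members than on other spiny neurons was tested with an interaction term. Against the Rgs6-Crym-Calb1 side, 0 of 3294 genes passed (0%; edgeR), with 123 at an unadjusted p under 0.05. DESeq2 also called 0, with 30. Against Drd2 spiny nuclei, 10 of 11444 genes passed (0.0874%), 4 with a higher and 6 with a lower change in members, and DESeq2 called 0. The count filter was applied with the deeper Drd2 sums included, and in members alone 2723 genes passed it. No call was kept in all of the fits that left out 1 library.

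The 6 lower genes were Bcl2, Spred2, Spred1, Clstn2, Oxr1 and ENSRNOG00000070383. Bcl2, which blocks apoptosis, was at 90.3, 90.5 and 63.8 CPM in saline and 88.4, 44.8 and 34.8 CPM in naloxone in members, while in Drd2 nuclei it rose by 1.54 on the log2 scale (edgeR adjusted p 0.00705). The difference of the changes was -2.33 (SE 0.43, edgeR adjusted p 0.000305), and it lost its call without naloxone replicate 6 (adjusted p 0.284). Spred1 and Spred2 both restrain Ras signalling to MAP kinases. Spred1 was at 193, 262 and 162 CPM in saline and 44.2, 149 and 69.6 CPM in naloxone, with no overlap, and a difference from Drd2 nuclei of -1.54 (SE 0.33, edgeR adjusted p 0.00835). Spred2 was at 126, 121 and 78.6 against 55.2, 89.6 and 34.8 CPM, and in Drd2 nuclei it rose by 0.75 on the log2 scale (edgeR adjusted p 0.0343). The call of Spred1 ended when saline replicate 2 or either of naloxone replicates 4 and 6 was left out, and that of Spred2 when saline replicate 1 or naloxone replicate 6 was.

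Oxr1, a gene of oxidative stress resistance, was at 391, 483 and 432 CPM in saline and 254, 231 and 169 CPM in naloxone, with no overlap. It was the 1 called gene outside the naming rule, which took 5 in each direction. The calcium-binding synaptic gene Clstn2 overlapped between groups, at 126, 161 and 285 against 276, 37.3 and 104 CPM.

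Of the 4 higher genes, 3 leaned on single nuclei. These 3 did not reach the count filter in the members' own naloxone fit, and passed it here with the deeper Drd2 sums included. Sox6, a transcription factor gene, had 0 UMIs in the 3 saline libraries and 25, 6 and 0 in naloxone, and 1 nucleus held all 25 of naloxone replicate 4. Chrm3, a muscarinic receptor gene coupled to calcium release, had 86 UMIs, of which 56 lay in 1 nucleus of naloxone replicate 6. Sphkap, which anchors protein kinase A, had 34 of 76 UMIs in 1 nucleus of the same library. Tenm3 was the fourth, with a difference from Drd2 nuclei of 1.01 (SE 0.23, edgeR adjusted p 0.0163).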

How the data were processed

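Single-nucleus RNA was captured with a 10x Genomics 3' kit from nucleus accumbens tissue punches. The deposited matrices hold UMI counts per gene and barcode made by the authors with Cell Ranger 9.0.1, per the file headers. The submitters' processing notes name the genome build mRatBN7.2, Seurat 5.2.1 and R 4.4.0. The annotation release and whether intronic reads were counted are not given in the sources used here. Barcode and gene lists came with the deposited matrices.

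The gate, the score and the division into 3 parts were applied to raw counts. UMIs of each class were summed per library and tested with edgeR 4.0.16 (TMM factors, filterByExpr, quasi-likelihood F test, R 4.3.3), with Benjamini-Hochberg adjustment over all genes tested and a threshold of 0.05. Interaction fits had library as a covariate. DESeq2 1.42.0 was an alternative. CPM used the summed UMIs of each class and library, and side differences used log2 of CPM plus 1. Genes were named where a fit called them with at least 10 CPM and groups that did not overlap (10 in each direction for naloxone), as the 5 largest called differences in each direction for interactions, and for the sides as the 10 largest mean differences with 1 sign in 6 of 6 libraries and at least 20 CPM. The fixed lists, the 12 score genes, Drd1, Pdyn and the opioid receptors were always described. The members, lists and tests were chosen with earlier results of these data known.

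Doublets were scored per library by simulated pairs at 0.4% per 1000 nuclei, marking 2649 nuclei (4.30%) and 1 of 82 members; they stayed in and were left out as an alternative. Members with both Xist and Y-linked UMIs numbered 2. Library depths ran from 55739350 to 76272798 UMIs. On simulated counts with no changed gene, 0 genes were called. With 200 changed genes, 0 to 5 unchanged genes were called in a fit. The simulation drew sums per library and class, so it did not model UMIs held by a single nucleus. The interaction with Drd2 nuclei recovered 2.5% of changes of 1 and 32.0% of changes of 2 on the log2 scale, and that with the other side 4.0% and 73.5%.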

Additional observations from a re-analysis of the deposited data

Results flagged for a closer look

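For 10 genes edgeR called a different change after naloxone in members and Drd2 spiny nuclei, by a test of the difference itself (interaction term, adjusted p under 0.05). DESeq2 called 0 genes in this comparison. The edgeR fit used the same noise estimate per gene for sums of 12 to 15 member nuclei and of 446 to 826 Drd2 nuclei. On the log2 scale the difference, members minus Drd2 nuclei, was 10.69 for Sox6, 2.68 for Chrm3, 2.01 for Sphkap and 1.01 for Tenm3. It was -2.33 for Bcl2, -1.73 for Spred2, -1.54 for Spred1, -1.51 for Clstn2, -1.37 for ENSRNOG00000070383 and -1.21 for Oxr1. The Sox6 value is set by the prior count, since its saline libraries of members were all at 0, and gives no size. Sox6, Chrm3 and Sphkap did not reach the count filter in the members' own naloxone fit.

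Adjusted p-values of the 10 genes in edgeR ran from 1.0e-06 for Sox6 to 0.0163 for Tenm3. Leaving out 1 library ended the call for Sox6 (naloxone replicate 4), for Chrm3 and Bcl2 (naloxone replicate 6), and for Sphkap, Oxr1 and Tenm3 (saline replicate 1, saline replicate 3 or naloxone replicate 6). Clstn2 lost its call without saline replicate 3 or naloxone replicate 6. ENSRNOG00000070383, at 313, 312 and 280 CPM in saline and 166, 179 and 89.5 CPM in naloxone, lost it without saline replicate 1 or naloxone replicate 6. The largest share of UMIs in 1 nucleus was 80.6% for Sox6, 65.1% for Chrm3 and 44.7% for Sphkap. For the 6 genes with a lower change it was between 6.20% (Spred1) and 9.59% (Spred2).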

How the results depend on the processing

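No paired analysis was possible because saline replicates 1 to 3 and naloxone replicates 4 to 6 share no number. With 12 to 15 nuclei per library, the naloxone fit reached only 2723 genes. It called 8 genes without a filter on low counts, including 1 list gene (Chordc1), and 0 to 10 when 1 library was left out (10 without naloxone replicate 5, 0 in the other fits). The difference from the Rgs6-Crym-Calb1 side called 4 genes without the filter, 1 with members ranked within each library, 1 with the scores split at the median, and 0 to 1 with 1 library left out (1 without naloxone replicate 5). The difference from Drd2 nuclei called 0 genes in DESeq2, 6 with a score from UMIs thinned to 5000 per nucleus and 3 with at least 1 Drd1 UMI. With 1 library left out it called 4 to 27 (5 without saline replicate 1, 16 without saline replicate 2, 27 without naloxone replicate 5, 4 without naloxone replicate 6). With at least 1 Drd1 UMI, Sox6 stood at -0.43 and Chrm3 at -0.053.

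The difference in share between treatments was -1.62 points with thinned UMIs, -0.27 with the median split, -3.31 with at least 1 Drd1 UMI and -2.05 with members of at least 5 raising UMIs. It ran from -2.53 to 5.30 when 1 library was left out. The 15 genes with 2-fold differences became 6 with the median split (4 shared with the 15) and 20 to 28 with 1 library left out. Thinning gave 14 such genes, of which 6 were shared. With 5 CPM added in place of 1 CPM, 12 of the 15 remained. The alternatives of at least 1 Drd1 UMI and of at least 5 raising UMIs were added after the data were seen. The cause of these shifts was not tested.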

Other observations

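Some genes passed the naloxone test only under another setting, and all were noticed after their values were seen. Without the filter on low counts, edgeR called Rheb, which activates the growth kinase mTOR, at 18.1, 0 and 29.5 CPM in saline and 99.4, 112 and 84.6 CPM in naloxone (adjusted p 0.0410 in that setting and 0.291 with the filter). It also called Cux2, a homeobox transcription factor gene, at 12.0, 40.2 and 54.0 against 188, 104 and 124 CPM (adjusted p 0.0473 and 0.291). Rheb UMIs were spread over 32 members, with at most 3 in any of them. On the Rgs6-Crym-Calb1 side the Rheb estimate was -0.64 on the log2 scale (edgeR adjusted p 0.975), and in Drd2 nuclei it was 0.19 (adjusted p 0.481). Without naloxone replicate 5, edgeR called the growth factor gene Nrg1 (-0.97, adjusted p 0.0378), the contactin gene Cntn5 (1.15, adjusted p 0.0104) and the semaphorin gene Sema3e (-1.71, adjusted p 0.0337).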
